A study of Mus musculus with 6 samples.

Results

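Mid1, its protein partners and a pair of genes counted almost only in one genotype were examined in inguinal fat, a white adipose depot under the skin of the groin, from mice aged 20 months. The 3 genes Mid1, Gm5900 and Gm15446 were chosen because their counts differed nearly on-off between the genotypes and they lie away from Adh5, the gene that encodes GSNOR (S-nitrosoglutathione reductase). The 4 partner genes Mid2, Igbp1, Ppp2ca and Ppp2cb were added because their products work with the Mid1 protein. These 7 genes are 7 of the 22695 rows of the deposited table. The study compared 3 wild-type samples (C57BL/6J-WT, called WT) with 3 knockout samples (C57BL/6J-GSNOR KO, called GSNOR KO), to find which transcripts go with the altered fat metabolism of old mice without the enzyme. No treatment is given for either group, and the labels give neither the knockout allele nor the sex of the mice. They do not say that each sample came from its own animal. The p-values thus set group differences against the spread between these samples, which need not be that between animals. All 6 libraries were made from poly-T selected RNA of snap-frozen tissue.

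Mid1 encodes a microtubule-bound ubiquitin ligase of the tripartite motif (TRIM) family, and loss of the human gene causes the midline malformations of Opitz syndrome. Its protein binds alpha4, the product of Igbp1, and through alpha4 it reaches the catalytic subunit of protein phosphatase 2A (PP2A), which it marks for degradation. PP2A in turn removes phosphates from many proteins, among them targets of mTORC1, the kinase complex that couples nutrients to growth. In the laboratory mouse the Mid1 gene crosses the boundary of the pseudoautosomal region, the stretch that the X and Y chromosomes share, so parts of it also occur on the Y chromosome.

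The libraries held 20277594 to 23961574 counts, so that 3 counts corresponded to 0.125 to 0.148 CPM, the usual measure of a count relative to the library total. All 8 adipocyte markers were detected, with summed levels of 9998 to 11329 CPM in WT and 10927 to 11686 CPM in GSNOR KO, and none of them passed the test in edgeR (1 at an unadjusted p under 0.05, 1 rose in DESeq2, 0 passed in limma voom). Transcripts of other cell types were present too, and no list had a marker at 0 in all libraries. The 7 skeletal muscle markers matched, of 8, summed to 21342, 8922 and 10722 CPM in WT and to 3169 to 6053 CPM in GSNOR KO, and 5 of them fell. The 8 macrophage markers summed to 293.6, 161.8 and 189.9 CPM in WT and to 75.3 to 110.3 CPM in GSNOR KO, and 6 fell. The 5 brown or beige adipocyte markers summed to 2698, 3641 and 4536 CPM in WT and to 4772 to 5445 CPM in GSNOR KO, and 2 of them rose in edgeR and 3 in DESeq2. Of 6 progenitor and fibroblast markers 4 fell, with sums of 226 to 348 CPM in WT and 141 to 183 CPM in GSNOR KO. In bulk tissue, fewer cells of a type and less RNA per cell cannot be told apart. Among 13694 tested genes 964 were called at an adjusted p under 0.05, which is 7.04%, with 534 (3.9%) higher and 430 (3.14%) lower in GSNOR KO. That number was 3 to 13 without WT replicate 2 or without any 1 GSNOR KO replicate, 915 without WT replicate 3 and 2844 without WT replicate 1. Of the same 13694 genes 3912 had an unadjusted p under 0.05 in edgeR, 2344 were called in DESeq2 and 688 in limma voom. Adh5 itself, the check of the labels, had 1757, 1446 and 1285 counts in WT and 89, 85 and 113 in GSNOR KO.

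Mid1 (ENSMUSG00000035299) lies on chromosome X, from 169685199 to 170005736 on the plus strand of GRCm38. Its counts were 1192, 1463 and 1595 in the WT replicates 1 to 3 and 89, 90 and 94 in the GSNOR KO replicates. Every GSNOR KO library was thus far below every WT library, and the 3 GSNOR KO libraries were nearly equal. Scaled to library size, Mid1 stood at 52.3, 65.4 and 78.7 CPM in WT and at 4.19, 3.76 and 4.11 CPM in GSNOR KO. The group means were 65.5 ± 13.2 and 4.02 ± 0.232 CPM (SD, n = 3 each). The fitted log2 fold change was -3.97 (SE 0.163), a level 15.7-fold lower in GSNOR KO, and since Mid1 was chosen on this contrast the value is a description. Summed over libraries, the GSNOR KO level was 6.17% of the WT level, with a 95% interval of 5.44 to 6.98% that covers counting error only. Leaving out any 1 library moved the log2 fold change no further than from -4.07 to -3.83. The authors' deposited table lists a log2 fold change of -3.95 for Mid1. The part of the other cell types in the difference was not tested.

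**Figure D1:**
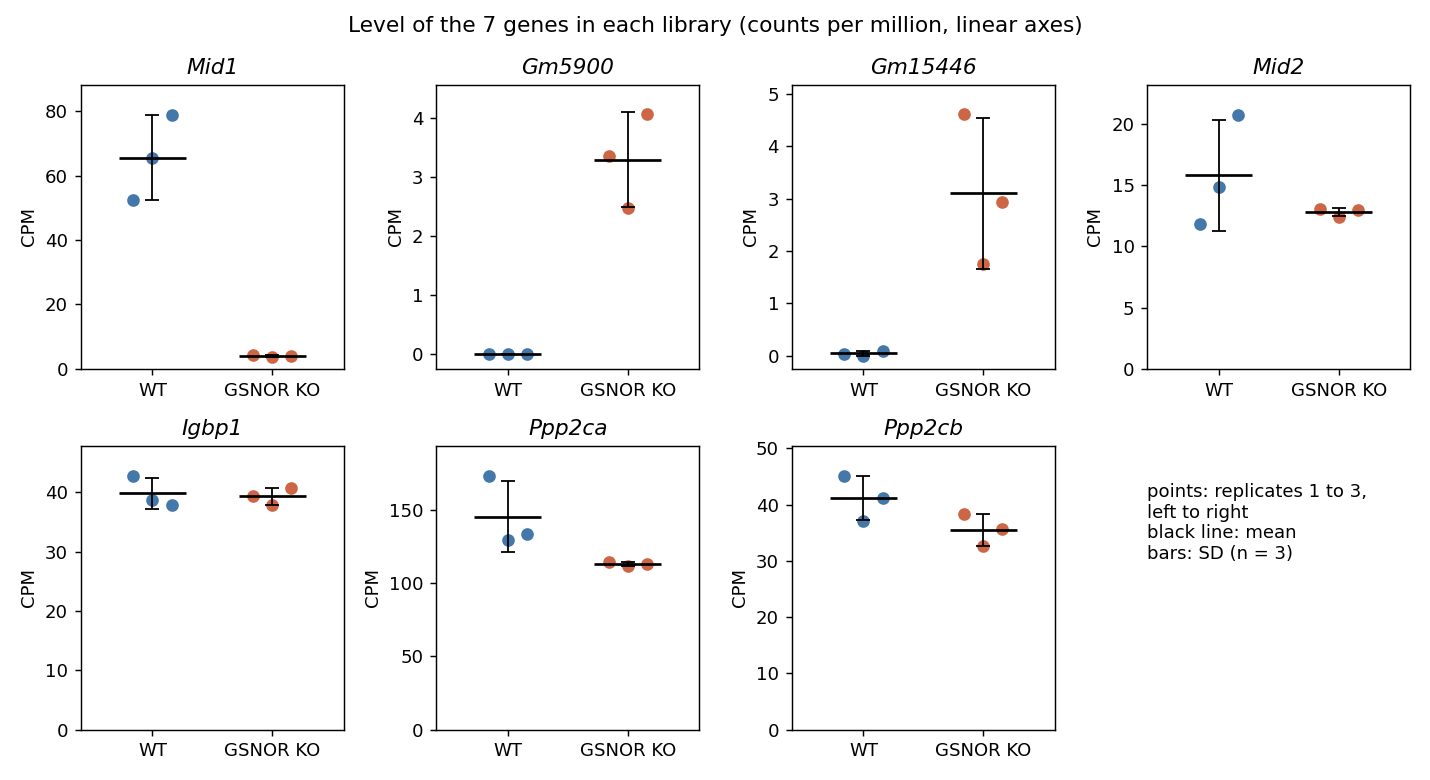
Level of each of the 7 genes in CPM (vertical axis, linear) in the WT and GSNOR KO libraries. Points are replicates 1 to 3 from left to right, black lines are means and bars are SD. Mid1 lay between 52.3 and 78.7 CPM in WT and between 3.76 and 4.19 CPM in GSNOR KO, Gm5900 and Gm15446 were near 0 in WT, and the 4 partners stayed within a narrower range.

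The level that remained in GSNOR KO was well above the detection floor of 3 counts, so Mid1 was reduced but still counted. Part of the Mid1 transcript also occurs elsewhere in the genome. Of the 3925 windows of 50 bases along its longest coding transcript, 1074 (27.4%) were found unchanged in a transcript of another gene. The pseudogene Mid1-ps1 on chromosome Y, from 90753057 to 90763485, held 984 of them and the pseudogene Gm21742, from 90837413 to 90844040, held 364. The antisense transcripts Gm15726 and Gm15247 within Mid1 held 99 and 63. None of these 4 has a row that was analysed here, and how the authors assigned reads that match more than one place, or whether they used strand, is not given in the sources used here. The number of Mid1 counts in GSNOR KO that may come from such copies was not tested.

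The X-linked paralogue Mid2 codes for a close relative of the Mid1 protein that also binds microtubules and alpha4. Mid2 (ENSMUSG00000000266, chromosome X, 140664599 to 140767715, plus strand) had 11.8, 14.9 and 20.7 CPM in WT and 13.1, 12.4 and 13.0 CPM in GSNOR KO. The groups overlapped, with means of 15.8 ± 4.52 and 12.8 ± 0.336 CPM. The log2 fold change was -0.24 (SE 0.184, 95% interval -0.67 to 0.19, edgeR adjusted p = 0.430). WT replicate 3 set most of that difference, which was -0.01 without it. The coding sequences of Mid1 and Mid2 were 68.1% identical, with a longest identical stretch of 17 bases, and they shared no window of 50 bases. On the per-length scale of FPKM (fragments scaled to transcript length and library size), the ratio of Mid1 to Mid2 was 9.27, 9.13 and 8.02 in the WT libraries. In the GSNOR KO libraries it was 0.606, 0.478 and 0.517, so Mid2 was the more abundant of the pair there. The lengths implied by counts and FPKM were 2352 to 2984 bases for Mid1 and 4552 to 5759 bases for Mid2. The longest coding transcripts used here had 3974 and 2525 bases, so the size of these ratios depends on lengths whose source is not given. Without scaling to length, the WT means were 65.5 CPM for Mid1 and 15.8 CPM for Mid2.

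Igbp1 codes for alpha4, the adaptor that binds both Mid1 and the catalytic subunits of PP2A, PP4 and PP6. Igbp1 (ENSMUSG00000031221, chromosome X, 100494291 to 100516125, plus strand) had 42.7, 38.8 and 37.9 CPM in WT and 39.3, 37.9 and 40.7 CPM in GSNOR KO. Its group means were 39.8 ± 2.57 and 39.3 ± 1.40 CPM, and the groups overlapped. The log2 fold change was 0.03 (SE 0.113, adjusted p = 0.881), and its 95% interval ran from -0.23 to 0.30, so changes of that size in either direction were not detectable here.

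Ppp2ca and Ppp2cb code for the alpha and beta forms of the PP2A catalytic subunit. Ppp2ca (ENSMUSG00000020349, chromosome 11, 52098681 to 52127778, plus strand) had 173.2, 129.5 and 133.4 CPM in WT and 114.6, 112.1 and 113.4 CPM in GSNOR KO. Every GSNOR KO library was below every WT library, as in 34.3% of all tested genes, where the groups did not overlap in either direction. The log2 fold change was -0.31 (SE 0.148, 95% interval -0.65 to 0.03, adjusted p = 0.215) and did not pass. WT replicate 1 was the highest library, and without it the log2 fold change was -0.12. Ppp2cb (ENSMUSG00000009630, chromosome 8, 33599625 to 33619441, plus strand) had 45.1, 37.2 and 41.1 CPM in WT and 38.3, 32.6 and 35.7 CPM in GSNOR KO. These ranges overlapped, and the log2 fold change was -0.16 (SE 0.108, 95% interval -0.42 to 0.09, adjusted p = 0.360). The coding sequences of the 2 forms were 82.0% identical with a longest shared stretch of 25 bases, so no window of 50 bases was common to both. Of the Ppp2ca transcript 43.2% of windows recurred in other genes, mostly in the lincRNA 9430098F02Rik that overlaps its end on the opposite strand.

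Of the 4 partners, 0 passed the test in edgeR, against 7.04% of all tested genes, and 0 had an unadjusted p under 0.05. DESeq2 gave the same counts, 0 and 0, and limma voom called 0 as well. A p that misses the threshold does not show that the genotypes had equal levels, and the intervals above bound the differences that these libraries leave possible. Ordered by WT level per length, Ppp2cb (25.7 ± 4.72 FPKM), Igbp1 (25.7 ± 3.46 FPKM) and Mid1 (25.2 ± 3.36 FPKM) could not be separated beyond their spread. Ppp2ca followed at 19.9 ± 5.26 FPKM, within the spread of those 3, and Mid2 stood far lower at 2.89 ± 0.625 FPKM. In GSNOR KO the order was Igbp1 (27.0 ± 1.17 FPKM), Ppp2cb (21.4 ± 2.11 FPKM), Ppp2ca (16.5 ± 0.468 FPKM) and Mid2 (2.68 ± 0.153 FPKM). Mid1, at 1.43 ± 0.150 FPKM, then stood last of these 5 genes and outside the spread of Mid2. Both orders inherit the doubt about the lengths behind the FPKM of Mid1 and Mid2.

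The genes around this axis were taken from lists of 44 genes for PP2A subunits, PP2A assembly factors and inhibitors, the related catalytic subunits of PP4 and PP6, and mTORC1. Of 39 tested genes 2 rose, 1 fell and 36 did not pass, so 7.69% were called beside 7.04% of all genes, and the share is near that background. The median log2 fold change was -0.02 in the lists and -0.04 over all tested genes. Among 16 PP2A subunits 1 rose and 1 fell, with a median log2 fold change of -0.17. An unadjusted p under 0.05 in edgeR was found for 6, and 3 were called in DESeq2 and 1 in limma voom. Over all 13694 tested genes these numbers were 3912, 2344 and 688. Ppp2r3a had the largest change of the 39 genes, a log2 fold change of -0.86, and narrowly missed the threshold (edgeR adjusted p = 0.0521). Ppp2r5d, a regulatory B56 subunit, rose from 42.6 ± 3.93 to 57.2 ± 3.36 CPM, a log2 fold change of 0.48 (SE 0.0922, adjusted p = 0.0321). Strn3, a striatin that places PP2A in a kinase-bearing complex, fell from 61.7 ± 2.92 to 43.7 ± 5.02 CPM, a log2 fold change of -0.45 (SE 0.106, adjusted p = 0.0477). Of the 11 mTORC1 genes 4 had an unadjusted p under 0.05 in edgeR, and 2 rose in DESeq2 and 1 in limma voom. In edgeR 1 rose, Mtor itself, the kinase of the complex. It rose from 68.9 ± 5.31 to 102.0 ± 5.25 CPM, a log2 fold change of 0.62 (SE 0.102, adjusted p = 0.0235).

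**Figure D2:**
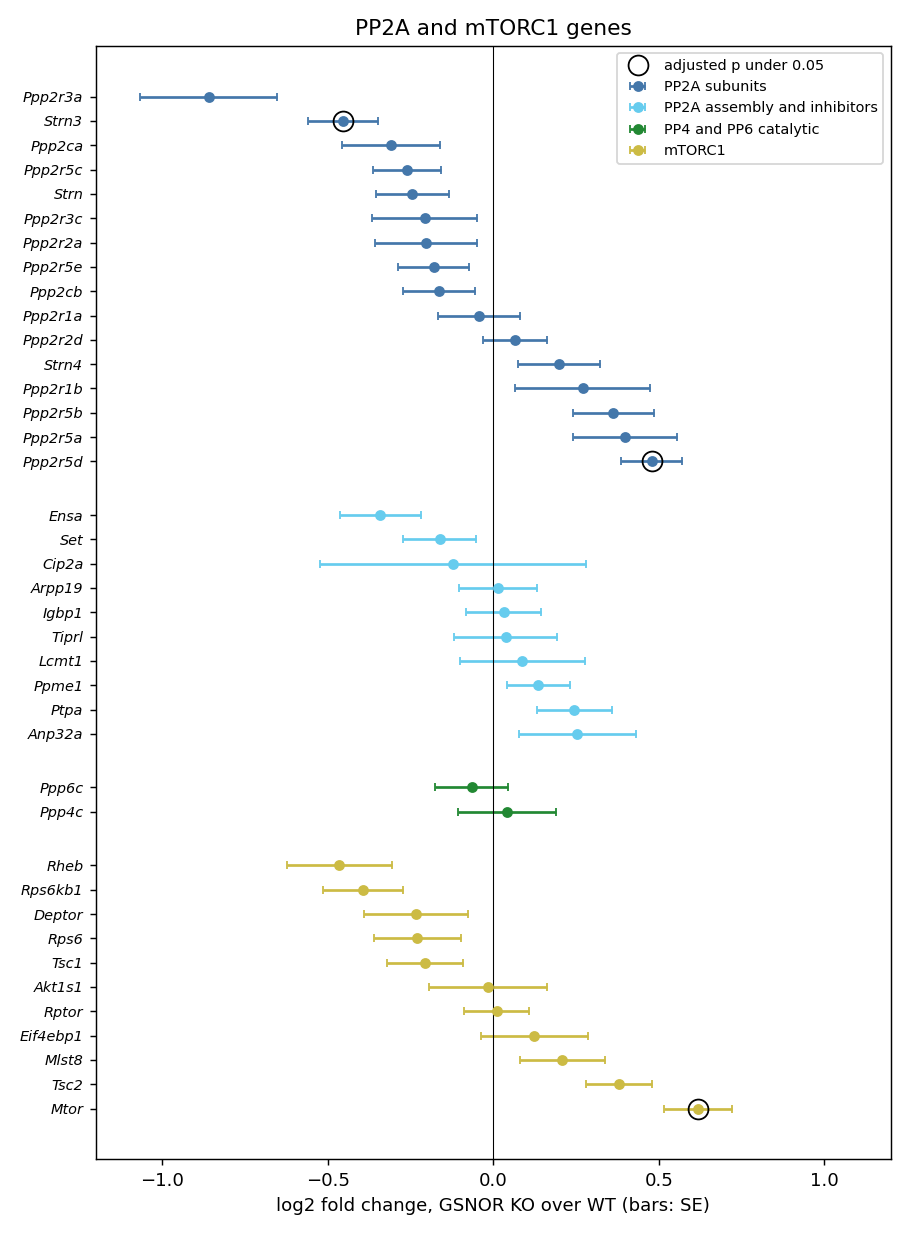
Log2 fold change of GSNOR KO over WT (horizontal axis) with its SE for the 39 tested genes of the PP2A, PP4, PP6 and mTORC1 lists, coloured by list and ordered within it. Circles mark the 3 genes at an adjusted p under 0.05, Ppp2r5d and Mtor to the right of 0 and Strn3 to the left, and the others lie within 0.5 of 0 except Ppp2r3a at -0.86.

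The assembly factors and inhibitors held 10 tested genes, of which 0 passed in edgeR, DESeq2 and limma voom and 1 had an unadjusted p under 0.05 in edgeR. Those with the smallest p were Ensa, an inhibitor of PP2A with the B55 subunit (log2 fold change -0.34, adjusted p = 0.118), and Ptpa, a PP2A activator (0.25, adjusted p = 0.205). Ppp4c and Ppp6c, the other catalytic subunits that alpha4 holds, had log2 fold changes of 0.04 (adjusted p = 0.879) and -0.07 (adjusted p = 0.737), and 0 had an unadjusted p under 0.05 by edgeR or passed with either other tool. Without WT replicate 2 or any 1 GSNOR KO replicate, Ppp2r5d (adjusted p 0.0840 to 0.148), Strn3 (0.105 to 0.210) and Mtor (0.0689 to 0.135) all missed the threshold. Strn3 also missed it without WT replicate 3 (adjusted p = 0.0599), with RLE size factors (0.0557), with no filter (0.0613) and in limma voom (0.0579). With library totals only, both Ppp2r5d (adjusted p = 0.0805) and Strn3 (0.0624) missed it. Over all 14 alternatives their log2 fold changes ran from 0.43 to 0.55, from -0.50 to -0.37 and from 0.57 to 0.69.

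Among the TRIM subfamily C-I and FSD genes, 6 were tested besides Mid1, which was chosen on this contrast. Of these 6, 1 fell in edgeR, Fsd2, beside 3.14% of all tested genes. An unadjusted p under 0.05 was found for 2, beside 3912 of all 13694 tested genes in either direction. In DESeq2 2 fell, where 2344 of all genes were called in either direction, and 1 fell in limma voom. Fsd2, whose protein is known from striated muscle, went from 40.8, 31.6 and 29.2 CPM in WT to 18.7, 14.1 and 18.4 CPM in GSNOR KO, a log2 fold change of -0.95 (SE 0.171, adjusted p = 0.0282). The skeletal muscle markers moved the same way, from sums of 8922 to 21342 CPM in WT to 3169 to 6053 CPM in GSNOR KO, and their part in the Fsd2 difference was not tested. Mid1ip1, named for the binding of its protein to Mid1 and known as an activator of acetyl-CoA carboxylase, had 75.2, 48.2 and 55.3 CPM in WT and 39.1, 30.8 and 29.7 CPM in GSNOR KO. It fell (log2 fold change -0.80, SE 0.181, adjusted p = 0.0446), whereas its paralogue Thrsp rose (log2 fold change 1.46, SE 0.189, adjusted p = 0.0181). Without WT replicate 2 or any 1 GSNOR KO replicate, Fsd2 (adjusted p 0.0687 to 0.143), Mid1ip1 (0.0687 to 0.185) and Thrsp (0.0529 to 0.111) missed the threshold. Mid1ip1 did so too without WT replicate 3 (adjusted p = 0.0509) and under limma voom (adjusted p = 0.0524), and without WT replicate 1 its log2 fold change was -0.55.

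Only 2 genes within 1 Mb of Mid1 were tested. Hccs, which attaches haem to cytochromes c, had 19.8, 15.3 and 19.0 CPM in WT and 11.9, 11.5 and 13.2 CPM in GSNOR KO. Its groups did not overlap, but its log2 fold change of -0.51 (SE 0.136, adjusted p = 0.0639) did not pass. Of the 2 genes, 0 were called in edgeR and in limma voom, 1 had an unadjusted p under 0.05 in edgeR, and 1 fell in DESeq2. Along the distal X chromosome and its pseudoautosomal end, 9 of 15 listed genes were tested, Mid1 among them. The log2 fold changes of the other 8 were all below 0, from -2.62 to -0.17 with a median of -0.41, beside -0.04 over all tested genes. Lowest was Tlr7, with 173, 38 and 51 counts in WT and 17, 7 and 18 in GSNOR KO. Next was Tlr8, with 154, 46 and 31 counts in WT and 10, 5 and 22 in GSNOR KO. Each was highest in WT replicate 1, as was the macrophage marker sum, whose part was not tested. Of these 8, 1 fell in edgeR, beside 3.14% of all tested genes. An unadjusted p under 0.05 was found for 5, beside 3912 of all 13694 tested genes in either direction. In DESeq2 4 fell, where 2344 of all genes were called in either direction, and 0 fell in limma voom. The 1 that fell in edgeR was Erdr1, from 654, 1404 and 1099 counts in WT to 160, 454 and 287 counts in GSNOR KO, a log2 fold change of -1.82 (SE 0.419, adjusted p = 0.0468). Its call is uncertain, since its identifier is annotated as Gm47283 on chromosome Y in GENCODE M21 and it missed the threshold whichever library was left out (adjusted p 0.0550 to 0.165), with no filter (0.0700) and in limma voom (0.0523). Y-linked transcripts were counted in all 6 libraries, with Ddx3y, an RNA helicase gene, at 55.5 to 59.8 CPM in WT and 39.1 to 43.9 CPM in GSNOR KO, a log2 fold change of -0.39 (adjusted p = 0.0602), and Uty, a histone demethylase relative, at 10.7 to 12.9 and 6.80 to 10.6 CPM (-0.45, adjusted p = 0.137). Of the 4 Y-linked genes Ddx3y, Eif2s3y, Kdm5d and Uty, 0 were called in edgeR and in limma voom, 2 had an unadjusted p under 0.05 in edgeR, and 1 fell in DESeq2.

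Gm5900 (ENSMUSG00000094685) is a processed pseudogene, a copy made from a reverse-transcribed messenger RNA, on the minus strand of chromosome 7 from 104949915 to 104950289. Its parent is Lamtor3, which encodes a subunit of the Ragulator complex that anchors mTORC1 on lysosomes. Both sequences, taken from GENCODE M21 on GRCm38, are shown because they are nearly the same over 375 bases. Their last 300 bases, from position 76, are printed, which for Gm5900 lie at chr7:104949915-104950214 on the minus strand. Capitals mark the 2 positions at which they differ, counted from 1 at the first base of the start codon. Given as the Lamtor3 base, the position and the Gm5900 base, these are C111T and G336A.
Gm5900: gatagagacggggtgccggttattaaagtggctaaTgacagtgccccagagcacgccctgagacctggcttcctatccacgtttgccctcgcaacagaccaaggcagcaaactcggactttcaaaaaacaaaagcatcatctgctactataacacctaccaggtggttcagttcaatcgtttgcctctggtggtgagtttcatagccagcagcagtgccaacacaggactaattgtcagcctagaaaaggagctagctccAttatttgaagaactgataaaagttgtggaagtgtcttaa
Lamtor3: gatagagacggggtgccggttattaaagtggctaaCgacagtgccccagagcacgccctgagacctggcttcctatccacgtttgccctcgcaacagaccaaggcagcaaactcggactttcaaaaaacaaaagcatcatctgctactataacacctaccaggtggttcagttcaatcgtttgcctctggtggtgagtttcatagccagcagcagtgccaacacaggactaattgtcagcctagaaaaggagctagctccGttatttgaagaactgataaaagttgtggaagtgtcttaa

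The copies were thus 99.5% identical, with an unbroken identical stretch of 224 bases that starts at position 112. Of the 326 windows of 50 bases in Gm5900, 236 (72.4%) also occurred in Lamtor3 and in no other gene. Counts of Gm5900 were 0, 0 and 0 in the WT libraries and 71, 59 and 93 in the GSNOR KO libraries. It was therefore not detected in any WT library, where 3 counts would have given a mean of 0.138 CPM, and stood at 3.35, 2.46 and 4.06 CPM in GSNOR KO (3.29 ± 0.802). Set against that floor of 3 counts per library, Gm5900 was at least 23.9-fold higher in GSNOR KO, a value that describes how it was chosen. The length implied by counts and FPKM was 1076 to 1145 bases, longer than the 375 bases annotated in GENCODE M21, a difference whose cause was not tested. In FPKM, Gm5900 was listed at 0 in the WT libraries and stood at 2.97 ± 0.703 in GSNOR KO, a level that inherits the doubt about the length.

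Lamtor3 (chromosome 3, 137918506 to 137928900, plus strand) lies 0.514 Mb from Adh5, the targeted gene. It had 604, 470 and 396 counts in WT and 357, 335 and 332 in GSNOR KO, with every GSNOR KO library lower (log2 fold change -0.52, SE 0.154, adjusted p = 0.0777). When the Gm5900 counts were added to those of Lamtor3, an alternative chosen after seeing the data, the sums were 604, 470 and 396 in WT and 428, 394 and 425 in GSNOR KO. The groups then overlapped, and the log2 fold change was -0.24 (SE 0.153, adjusted p = 0.345). Gm5900 made up 15.0 to 21.9% of that sum in the GSNOR KO libraries. How the authors divided reads between these near-identical rows was not stated, so both values are uncertain, and whether the Gm5900 reads came from chromosome 7 was not tested.

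Gm15446 (ENSMUSG00000090015, chromosome 5, 109923400 to 109943936, plus strand) is annotated in the deposited table as a zinc finger gene with a KRAB domain, the repressor domain of a large family of DNA-binding proteins, whereas RefSeq lists it as a long non-coding RNA. Its nearest copy is Zfp932 on the same strand (109996521 to 110010411), 52585 bases away. Their coding sequences were 93.5% identical, and the longest stretch they share without a difference, 195 bases from position 829 of the Gm15446 coding sequence, is shown because reads within it cannot be assigned to either gene. It carries no capitals since no base differs.
Gm15446 and Zfp932: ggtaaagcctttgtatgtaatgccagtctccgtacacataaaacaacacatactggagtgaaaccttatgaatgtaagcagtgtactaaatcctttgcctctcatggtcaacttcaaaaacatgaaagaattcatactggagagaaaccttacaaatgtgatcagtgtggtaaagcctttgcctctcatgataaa

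In Gm15446, 1155 of 2368 windows (48.8%) recurred in other genes, 1108 of them in Zfp932. Its counts were 1, 0 and 2 in WT and 98, 42 and 67 in GSNOR KO, so that every WT library was at or near 0. The GSNOR KO libraries stood at 4.62, 1.75 and 2.93 CPM (3.10 ± 1.44) and differed among themselves by 2.63-fold. With 3 WT counts in all, the ratio of GSNOR KO to WT was 66.3, with a counting interval of 22.4 to 324. The fitted log2 fold change of 5.94 ranged from 5.42, with WT replicate 2 left out, to 6.83, with WT replicate 3 left out. The FPKM values in GSNOR KO, 10.3, 0.952 and 11.8, imply transcript lengths from 248 to 2282 bases, a 9.21-fold range, and levels per length of this gene were not used. Zfp932 had 160, 191 and 173 counts in WT and 161, 174 and 221 in GSNOR KO, a log2 fold change of 0.08 (SE 0.181, adjusted p = 0.813). Added together, the pair gave 161, 191 and 175 counts in WT and 259, 216 and 288 in GSNOR KO, a log2 fold change of 0.53 (SE 0.166, adjusted p = 0.0912), also an alternative chosen after seeing the data. Gm15446 made up 19.4 to 37.8% of the sum in GSNOR KO.

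**Figure D3:**
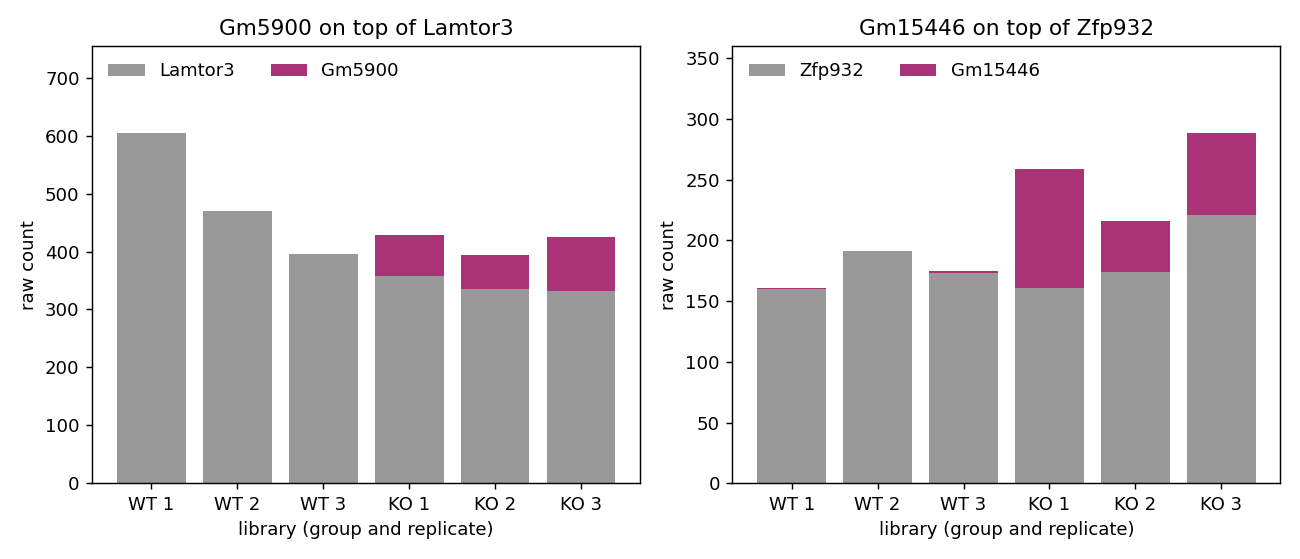
Raw counts (vertical axis) of Lamtor3 with Gm5900 stacked on top, left, and of Zfp932 with Gm15446 stacked on top, right, in each library (horizontal axis, group and replicate). Gm5900 adds 59 to 93 counts in the GSNOR KO libraries and 0 in WT, and Gm15446 adds 42 to 98 in GSNOR KO and 0 to 2 in WT.

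Around Gm5900, 76 rows lay within 1 Mb, of which 49 were at 0 in all libraries and 20 were tested. Of these 20, 1 rose in edgeR, Timm10b, a gene for a mitochondrial protein import chaperone 689767 bases away, with 48.5, 50.2 and 54.3 CPM in WT and 72.8, 75.1 and 74.2 CPM in GSNOR KO, a log2 fold change of 0.59 (SE 0.103, adjusted p = 0.0270). It missed the threshold without WT replicate 2 (adjusted p = 0.0678) and without any 1 GSNOR KO replicate (0.0722 to 0.138). Of the 20, 8 had an unadjusted p under 0.05 in edgeR, beside 3912 of all 13694 tested genes. In DESeq2 5 were called, 4 higher and 1 lower, beside 2344 of all genes. In limma voom 1 was called, beside 688 of all genes, and edgeR called 7.04% of all tested genes. The median log2 fold change of the 20 was 0.03, within a range of -1.37 to 0.62. Around Gm15446, 21 of 34 rows were tested, with a median of 0.07 and a range of -1.35 to 0.51. Of these, 0 passed in edgeR and in limma voom, 5 had an unadjusted p under 0.05 in edgeR, and 3 were called in DESeq2, 2 higher and 1 lower. The numbers over all tested genes given above are the background here too.

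**Figure D4:**
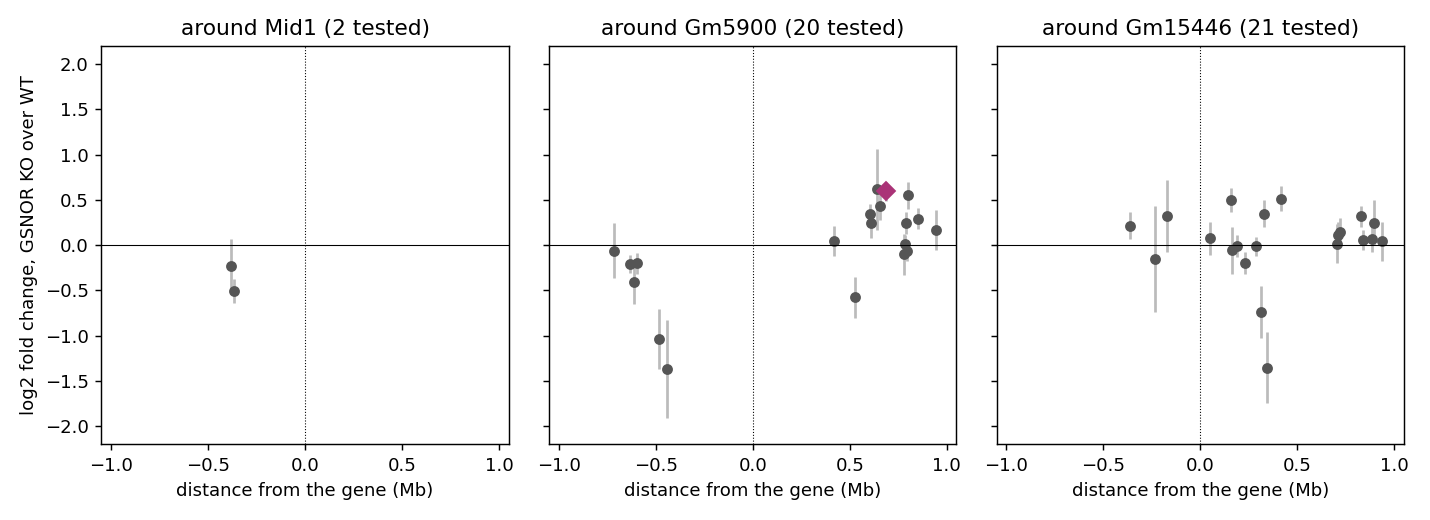
Log2 fold change of GSNOR KO over WT (vertical axis, bars are SE) of the tested genes within 1 Mb of Mid1, Gm5900 and Gm15446, against distance from the gene in Mb (horizontal axis). Grey points did not pass and the diamond is Timm10b at 0.59, and no tested neighbour differed by more than 1.37 on the log2 scale.

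The genes most like Mid1 over the 6 libraries were found by the distance between centred log2 CPM profiles. Mid1, Gm5900 and Gm15446 were chosen on this contrast, so their nearest profiles are largely those of rows with a similar fold. The distances are a description only. Adh5 was nearest to Mid1, at a distance of 0.675 where the Mid1 profile itself has a length of 4.82. The Adh5 log2 fold change of -3.97 equals that of Mid1 to 2 decimals. Kcnn2, a small-conductance potassium channel gene, followed at 1.15 with 35, 28 and 19 counts in WT and 1, 0 and 1 in GSNOR KO. Lep, the gene of the fat hormone leptin, came next at 1.19, with 87.8, 302.1 and 141.9 CPM in WT and 12.5, 8.43 and 11.1 CPM in GSNOR KO. Gm5900 was nearest to Gm15446 among named genes, at a distance of 1.34. One gene model added by the authors, with 13, 6 and 17 counts in WT and 245, 215 and 132 in GSNOR KO, was nearer still to Gm15446, at 1.30. The next nearest to Gm5900 were that model, at 2.17, and another added model, at 2.70, and the next nearest to Gm15446 was the keratin gene Krt7, at 1.99.

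To place the 3 genes among all rows, a row was called on-off where each library of one group had at least 10 counts, the groups did not overlap, and the group means in CPM differed at least 8-fold. This rule held for 46 of 13404 eligible rows, or 0.343%, with 33 higher in WT and 13 higher in GSNOR KO. All 3 genes were among them, which their choice made certain. By class, 24 of the rows higher in WT and 4 of those higher in GSNOR KO had a gene symbol that is no predicted model, and 13 rows were models added by the authors. Among the rows with coordinates only Adh5 itself lay within 10 Mb of Adh5, and 2 lay on chromosome X, Mid1 and Atp2b3. The 13 added models and a numbered part of Gbp2b had no coordinates here, so their distance from Adh5 was not computed. That part of Gbp2b had 1, 5 and 3 counts in WT and 677, 798 and 720 in GSNOR KO. Just outside the 8-fold limit lay Ppp1r3g (7.90) and Bpifa2 (7.87), and just inside lay Msr1 (8.22) and Il18rap (8.31).

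The rule made certain that no on-off row overlapped between the groups. Most rows higher in WT spread more widely within WT than Mid1, which was chosen on this contrast. Of those 33, 24 spread over more than 3-fold within WT, and 22 were highest in WT replicate 1. Spp1, which encodes osteopontin, had 1245, 83 and 62 counts in WT and 61, 34 and 20 in GSNOR KO, so its lowest WT library was 1.06 times its highest GSNOR KO library in CPM. With 3 counts in place of any lower value in every row, that ratio was 12.5 for Mid1, 16.6 for Gm5900, 11.8 for Gm15446 and 12.8 for Adh5. A limit of 8 on this ratio, chosen after seeing the data, left 6 rows. They were these 4, Krt7 (8.18) and the numbered part of Gbp2b, which had the largest ratio (140.7). With the floor in place only where the whole lower group was at 0, the limit left 9 rows, since Kcnn2 then stood at 19.9 and not 6.63, Acot3 at 10.2 and not 6.79, and 1 model added by the authors at 8.93 and not 7.91, and Gm15446 stood at 17.8. Acot3, a peroxisomal acyl-CoA thioesterase gene, had 2 counts in each WT library and 28, 28 and 23 in GSNOR KO. Krt7, an epithelial keratin gene, had 3, 2 and 3 counts in WT and 43, 29 and 36 in GSNOR KO, beside epithelial markers that summed to 0.716 to 0.888 CPM in WT and 0.417 to 3.71 CPM in GSNOR KO, and their part was not tested.

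**Figure D5:**
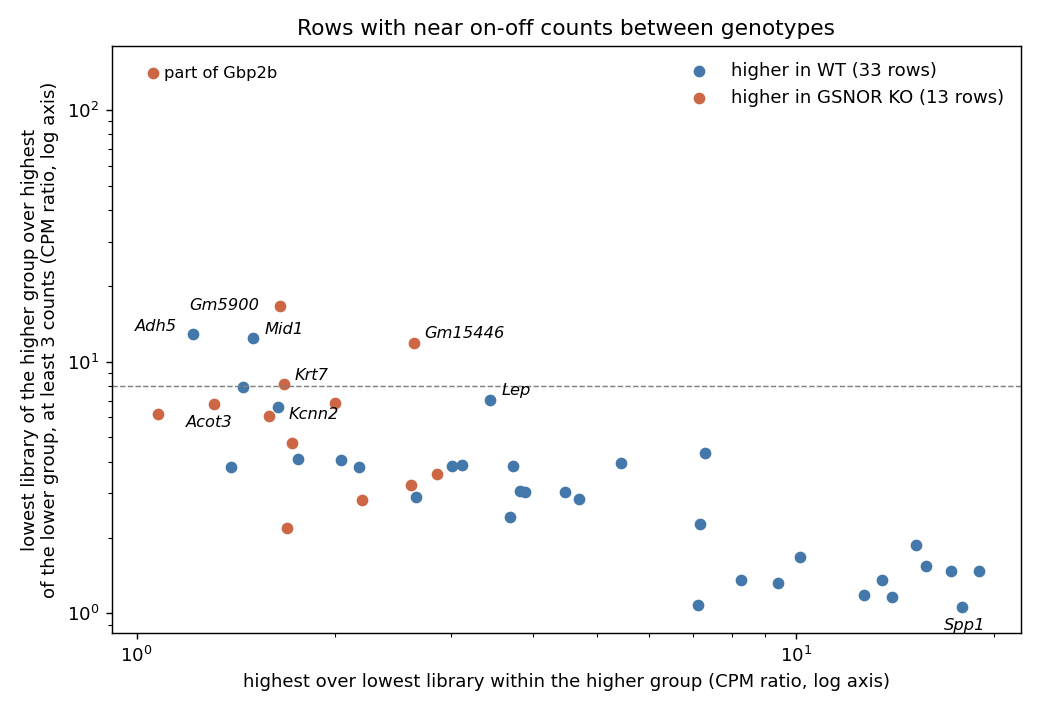
The 46 on-off rows by the ratio of the highest to the lowest library within the higher group (horizontal, log axis) and the ratio of the lowest library of the higher group to the highest of the lower group, with 3 counts in place of any lower value (vertical, log axis). Blue rows are higher in WT and orange rows in GSNOR KO. Mid1, Gm5900 and Gm15446 lie above the dashed line at 8 together with 3 other rows, and the rows at the lower right, such as Spp1, spread more than 7-fold within WT.

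The 12 largest ratios of group means among the on-off genes with a symbol that is no predicted model are described next, and all but 2 of the 12 were higher in WT. Gm15446, at 65.2, and Gm5900, at 23.9 with the floor, are predicted models higher in GSNOR KO and stand outside these 12. The floor replaced a group mean only where that mean was 0. Gm15446 was thus divided by its WT mean of 0.0475 CPM and Gm5900 by 0.138 CPM, so their ratios cannot be compared. Mid1 was lower in GSNOR KO by 16.3 times on this scale, between Lep (16.6) and Adh5 (16.2). Kcnn2 had the largest value of the 12, 41.0, but with 2 GSNOR KO counts in all its pooled ratio of 42.7 has a counting interval of 11.4 to 358. Zc3h12d, a ribonuclease gene of immune cells, reached 19.3, with 36, 15 and 41 counts in WT and 1, 0 and 4 in GSNOR KO. Pydc4 (15.3), Zbp1, a sensor of Z-form nucleic acids (15.1), and Ms4a6d (13.5) were each highest in WT replicate 1, with 171, 841 and 708 counts there against 11 to 52 in the other WT libraries. The macrophage marker sum was highest in the same library, and its part in these ratios was not tested. Prr16 (15.1) had 13, 47 and 18 counts in WT and 5, 0 and 0 in GSNOR KO. Alb, the albumin gene (14.8), had 62, 28 and 31 counts in WT and 7, 1 and 0 in GSNOR KO. The 2 that were higher in GSNOR KO were Krt7 (13.0) and Acot3 (12.7).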

How the data were processed

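Messenger RNA of inguinal white adipose tissue was sequenced in 3 WT and 3 GSNOR KO samples. The authors deposited 1 table with raw counts and FPKM per library, per the file headers, and their own comparison as adjusted p and log2 fold change, which is quoted only where named. Per the submitters' processing notes the build was GRCm38 (mm10). No aligner, counter, strand setting or read assignment is given in the sources used here. Counts were used as deposited, and CPM are counts scaled to the library total. FPKM as deposited by the authors served only for levels per length. Coordinates and sequences are from GENCODE M21 (GRCm38), matched for 21184 of 22695 rows.

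Genes were tested with edgeR 4.0.16 in R 4.3.3 (filterByExpr, TMM factors of 0.930 to 1.08, robust quasi-likelihood F test, Benjamini-Hochberg adjustment over 13694 genes, threshold 0.05), and the steps were tested on simulated data. SE is the log2 fold change over the square root of F, and intervals use the t quantile. Mid1, Gm5900 and Gm15446 were chosen on this contrast and carry no p. An exact permutation test of 3 against 3 cannot go below 0.10 and was not used. Alternatives were other scalings and filters, DESeq2 1.42.0, limma voom 3.58.1, a replicate block and leaving out each library. Profile distances used a prior count of 2. Shared windows and alignments were computed with Biopython 1.88. Intervals of counts pooled over libraries and the floor cover counting error only, whereas fitted intervals include the spread between libraries.

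The genes and lists were chosen with earlier results of these data known. Genes named beyond the 7 are Adh5, the called or 2 lowest-p members of each list, the 12 on-off symbols with the largest ratios, called neighbours and the 3 nearest profiles. Lamtor3, Zfp932, Spp1, Hccs, Atp2b3, Tlr7, Tlr8 and the Gbp2b part were named after their values were seen.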

Additional observations from a re-analysis of the deposited data

How the results depend on the processing

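Of the 4 partners of Mid1, 0 were called under all 14 alternatives. The Mid1 log2 fold change stayed between -4.07 and -3.83 in all of them. The 964 calls became 2344 with DESeq2 and 3 to 2844 when 1 library was left out, and the split of 534 higher and 430 lower became 314 and 406 with library totals only, where the median of all genes moved by -0.05. The 3 calls in the PP2A and mTORC1 lists became 5 with DESeq2, 1 with the replicate block and 0 to 9 in the leave-outs. The 1 called neighbour became 9 with DESeq2, 0 within 0.5 Mb, 3 within 2 Mb and 0 to 12 in the leave-outs. The 46 on-off rows became 248 at a ratio of 4, 11 at 16, 25 with at least 30 counts, 48 to 97 in the leave-outs and, by the limits on single libraries added after seeing the data, 9, or 6 with the floor in every row. The log2 fold change of Igbp1 changed sign with library totals only (-0.0177) and ranged from -0.0039 to 0.126 in the leave-outs, and that of Zfp932 ranged from -0.0651 to 0.173 in the leave-outs. The cause of these shifts was not tested. Deviations of same-numbered libraries correlated at 0.158, 0.132 and -0.0556, and those of other pairs at -0.216 to 0.186. Such weak values cannot show whether the replicate numbers pair the samples. With the replicate numbers as a block 884 genes were called. Ppp2r5d (adjusted p = 0.0648) and Strn3 (0.0861) then missed the threshold and Mtor passed it (0.0454).

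The fitted log2 fold change of Gm5900 was 9.22 in edgeR, 8.67 in DESeq2 and 7.19 in limma voom, and that of Gm15446 ran from 5.42 to 6.83 in the leave-outs. The cause was not tested, and the floor of 3 counts per library does not enter these fitted values.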
